A study of Rattus norvegicus with 8 samples.

Results

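The genes described here encode the thin filament, the Z-disc, the M-band and the proteins that sit beside them in the sarcomere of heart muscle, without the myosin chains. They were compared between the left atrium and the left ventricle of the rat. The list held 41 genes, of which 38 had at least 1 probe set of their own among the 14217 genes measured in this way, with 74 probe sets in all. Actc1, the cardiac alpha-actin, was read only by 5 probe sets that also match Acta2, and Nebl and Xirp2 had no annotated probe set. Where a gene had several probe sets, the brightest one, by its mean on the 8 arrays, stood for it, and the others are given beside it. Tissue was taken from atrial appendages and from ventricular free walls of 13 normal male Sprague Dawley rats weighing 225 to 275 g. Each tissue was combined into 4 pools, 1 array per pool, and all 8 samples are labelled normal. That the tissue came from the left side rests on the study's methods, and which animals made up which pool is not stated, so the spread given is a spread between 4 pools. Each pool gave 10 μg of total RNA to an Affymetrix rat array, on which a gene is read by probe sets, groups of short oligonucleotides. Values are log2 signal intensities, so a difference of 1 is a doubling of signal.

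The sarcomere is the contractile unit of striated muscle. Thin filaments of actin carry tropomyosin and the troponin complex, which move when calcium binds troponin C and expose actin to myosin. Thin filaments are anchored in the Z-disc by alpha-actinin, thick filaments are cross-linked in the M-band by myomesins, and titin spans from one to the other. Around this frame lie adaptor proteins with PDZ, LIM or ankyrin repeat domains, several of which are known to respond to stretch. Atrial and ventricular muscle are known to differ in their myosin heavy and light chains, while cardiac troponins are shared by both chambers.

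The tissues matched their labels: 6 of 6 atrial muscle markers, among them Nppa, were higher in the atria and 6 of 6 ventricular muscle markers, among them Myl2, were lower. The mean over the ventricular muscle markers was highest in atrial pools 1 and 4 (6.35, 4.72, 5.10 and 6.67 on atrial arrays 1 to 4). Myl2, the ventricular regulatory light chain, read 10.48, 4.32, 6.82 and 11.30 on these arrays and 13.23 to 13.30 on the ventricular arrays. Its dimmer probe set read 4.12, 3.94, 4.12 and 4.82 in the atria. Myl3, Rpl3l and Hey2 were also highest in atrial pools 1 and 4, but Irx3 and Irx4, with atrial means under 4, were not highest in both. Values without atrial pools 1 and 4 are therefore given where they ended a call or moved a called difference by over 1.5 times, and for Acta1 and Fhl2. Of the 13 sarcomere genes that did not pass, none was called without these pools, and the differences of Xirp1 (0.06), Pdlim1 (0.07), Tnni3 (0.01) and Tnnc1 (-0.02) changed sign. Of the other cell types, fibroblast markers were higher in the atria for 7 of 7 genes (log2 of their summed intensity 13.74 to 13.93 against 13.40 to 13.58), and smooth muscle markers were lower for 6 of 7 (9.57 to 9.63 against 10.16 to 10.32). Mesothelial markers were higher for 4 of 5 genes and lower for 1 (9.96 to 10.86 against 7.36 to 7.54), the largest shift of the non-muscle lists, with a median difference of 4.36. Endothelial markers were lower for 4 of 6 and higher for 1 (11.19 to 11.29 against 11.57 to 11.72). Fat markers also varied between the atrial pools (10.48 to 12.02 against 11.06 to 11.21 in the ventricles), with 3 of 5 genes higher. Leukocyte markers were lower for 3 of 6 (7.80 to 8.10 against 8.01 to 8.22), and nerve markers were higher for 1 of 4 and lower for 1 (6.55 to 7.21 against 6.36 to 6.55). Of 9 skeletal muscle markers, 2 were higher and 2 lower, and 6 (Myh2, Myh4, Tnni2, Tnnc2, Actn3 and Myog) had a mean under 4, the low end of the scale. Their summed intensity (10.46 to 10.76 against 10.94 to 11.23) was mostly that of Myh1, read by a probe set whose name marks it as matching several transcripts. The mean over the skeletal muscle markers went the other way, 4.50 to 4.60 in the atria against 4.22 to 4.28. In whole tissue, fewer cells of a type and less RNA per cell cannot be told apart, and the part of other cell types in the results below was not tested.

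Of the 38 genes, 13 were more abundant in the atria and 12 in the ventricles by limma (calls at an adjusted p under 0.05), and 13 did not pass. Over all 14217 genes the shares were 22.5% higher and 22.5% lower, against 34.2% and 31.6% of the sarcomere genes. The median difference was -0.01 over these genes and -0.04 over all genes, while the median size of a difference was 0.31 against 0.20. The arrays of the tissues did not overlap for 25 genes, 65.8% of them, against 44.1% of all genes. Most differences were small. With the study's thresholds, a fold of at least 1.8 and an adjusted p under 0.0001, 2 genes were higher in the atria (Mybphl and Pdlim3). Another 3 were lower (Fhl2, Ankrd23 and Acta1), where all genes gave 3.37% higher and 2.53% lower. The study set its FDR with SAM (Significance Analysis of Microarrays), while here the threshold was put on limma adjusted p-values. With SAM the counts were also 2 higher and 3 lower. Of the 8 genes with a mean of at least 12, near the top of the scale, differences ran from -0.18 to 0.55, and whether saturation of the probes narrowed them was not tested.

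**Figure D1:**
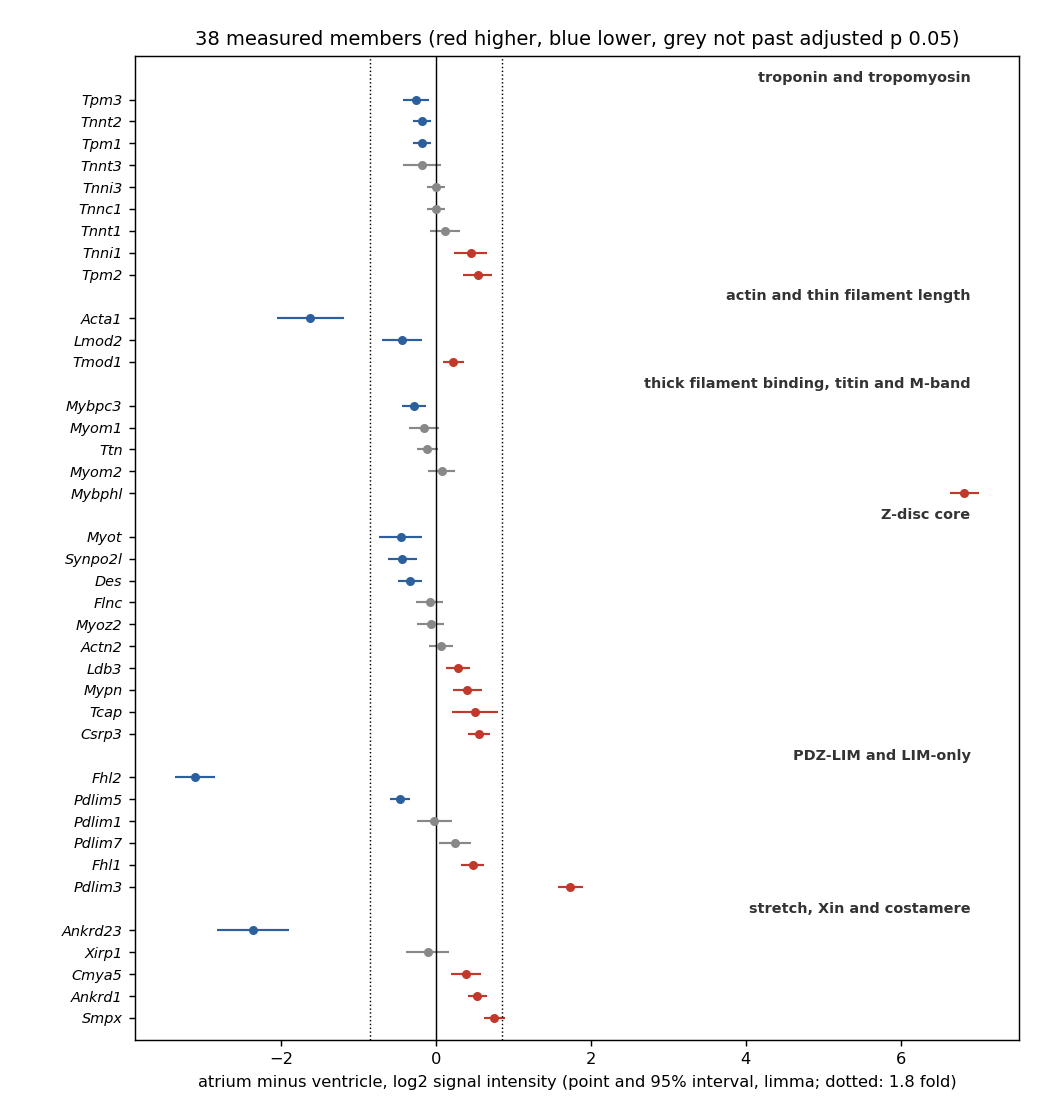
Difference between atrium and ventricle (log2 signal intensity, x axis) for each of the 38 measured genes, grouped by role. Points are the limma estimates with 95% intervals, red (higher in the atria) and blue (lower) mark an adjusted p under 0.05, and dotted lines mark 1.8 fold. Mybphl at 6.82 and Fhl2 at -3.11 lie farthest from 0, and most of the rest lie between the dotted lines.

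**Figure D2:**
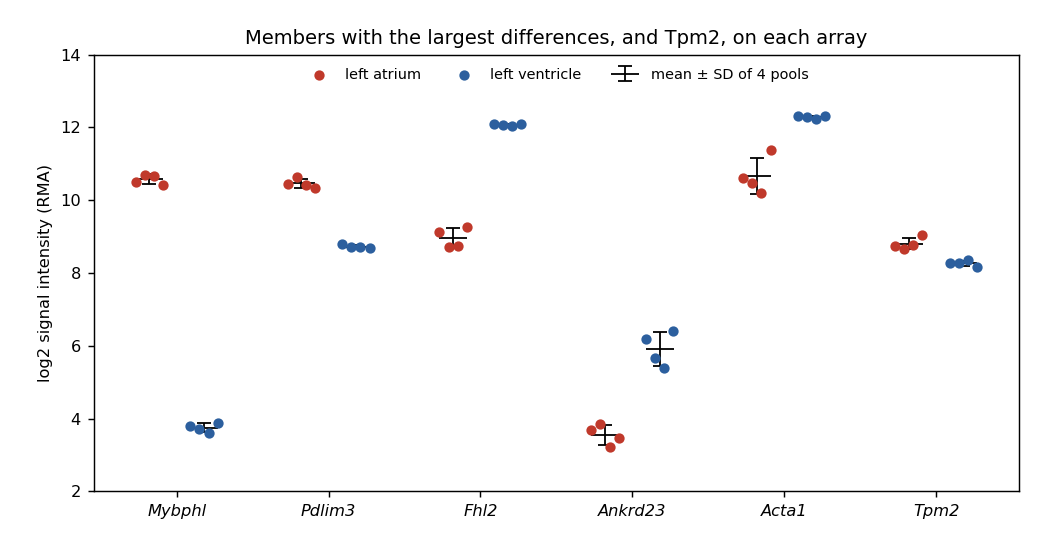
Log2 signal intensity (y axis) of 6 genes on each of the 8 arrays, red for the atrium and blue for the ventricle, with the mean and SD of the 4 pools. The tissues do not overlap for any of the 6 genes, and the atrial spread is widest for Acta1, from 10.19 to 11.37.

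Promoter sequence is shown for the genes past the study's thresholds for which the RefSeq promoter table of build GRCr8 held an entry, so that the starts of the genes with the largest differences can be read side by side. Pdlim3 had none. In all, 33 of the 41 genes matched, with 40 windows of 250 bases before the gene start, since 5 genes have several windows. The 150 bases nearest the start follow, 5′ to 3′ on the gene's own strand, with capitals for the letters of 5 motifs searched on both strands.

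Mybphl (chr2:198693302-198693451, plus strand): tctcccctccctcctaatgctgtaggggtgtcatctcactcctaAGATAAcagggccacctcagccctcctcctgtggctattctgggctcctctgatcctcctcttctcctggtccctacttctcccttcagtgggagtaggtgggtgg
Fhl2 window 1 (chr9:52954541-52954690, minus strand): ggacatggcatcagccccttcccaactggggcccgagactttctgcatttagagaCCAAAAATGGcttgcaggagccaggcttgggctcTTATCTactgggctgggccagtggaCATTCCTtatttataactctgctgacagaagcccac
Fhl2 window 2 (chr9:52923327-52923476, minus strand): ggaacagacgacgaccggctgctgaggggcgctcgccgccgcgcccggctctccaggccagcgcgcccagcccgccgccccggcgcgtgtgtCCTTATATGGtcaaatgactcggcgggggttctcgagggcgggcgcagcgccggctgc
Acta1 (chr19:68784195-68784344, minus strand): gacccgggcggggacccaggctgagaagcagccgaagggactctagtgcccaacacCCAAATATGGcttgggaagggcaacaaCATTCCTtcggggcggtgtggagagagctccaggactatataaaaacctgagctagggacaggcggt
Ankrd23 (chr9:46274511-46274660, minus strand): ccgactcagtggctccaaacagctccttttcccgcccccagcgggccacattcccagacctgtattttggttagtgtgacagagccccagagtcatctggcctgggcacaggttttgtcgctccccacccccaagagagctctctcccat

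The motifs were the M-CAT element (CATTCCT, known to be bound by TEAD factors), a GATA site (AGATAA), a T-box site (AGGTGT), the MEF2 core (CTA, 4 bases of any kind and TAG) and the CArG box, the site of serum response factor. Fhl2 window 1, from the gene with the strongest excess in the ventricles, held a CArG box, a GATA site on the opposite strand and an M-CAT element. Acta1 held a CArG box followed by an M-CAT element, Fhl2 window 2 held a CArG box, Mybphl held a GATA site, and Ankrd23 held none of these letters. A CArG box stood in 15% of the sarcomere gene windows and 1.5% of all 33469 promoters, a MEF2 core in 15% and 3.41%, an M-CAT element in 12.5% and 4.35%, a GATA site in 17.5% and 10.3%, and a T-box site in 7.5% and 11.6%. These are letter matches and not binding sites. No matches of different motifs overlapped in the sarcomere gene windows (0 found).

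The signal of the cardiac troponin genes differed little between the chambers. Tnnc1, Tnni3 and Tnnt2 had means of 12.65, 12.79 and 12.72, near the top of the scale. Whether saturation of the probes narrowed their differences was not tested. Array values are given throughout in the order of replicates 1 to 4. Tnnc1, the calcium-binding subunit, differed by 0.00 (95% interval -0.12 to 0.12, limma adjusted p = 0.99). Tnni3, the cardiac inhibitory subunit, read 12.79, 12.78, 12.82 and 12.77 in the atria and 12.77, 12.80, 12.79 and 12.80 in the ventricles, with the interval of the difference from -0.12 to 0.11. All 8 arrays lay within the same narrow band for both genes. Tnnt2, the cardiac subunit that ties the complex to tropomyosin, read 12.63, 12.61, 12.66 and 12.60 in the atria and 12.79, 12.82, 12.78 and 12.84 in the ventricles. The atrial arrays were all below the ventricular ones, by 0.18 (adjusted p = 0.021, limma), a fold of 1.13. Without ventricular pool 4 the adjusted p was 0.053 and without atrial pools 1 and 4 it was 0.07, and its dim probe set differed by 0.12 (adjusted p = 0.51).

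Tnni1, the inhibitory subunit of slow skeletal and fetal heart muscle, was the troponin with the largest difference. It read 5.37, 5.41, 5.65 and 5.64 in the atria and 4.91, 5.09, 5.28 and 4.98 in the ventricles, without overlap. Its difference was 0.45 ± 0.10 (SE, limma adjusted p = 0.004), and on its other probe set 0.93 (adjusted p = 0.00012). Tnnt1, the slow skeletal troponin T, read 3.18, 3.25, 3.39 and 3.10 in the atria and 3.26, 3.13, 3.15 and 2.92 in the ventricles. Tnnt3, the fast skeletal form, read 3.61, 3.48, 3.90 and 3.98 against 3.97, 3.86, 4.07 and 3.79. Tnnt1 and Tnnt3 lay at the low end of the scale with overlapping tissues, and neither passed (limma adjusted p = 0.33 and 0.23), although the other probe set of Tnnt3 was lower in the atria by 0.30 (adjusted p = 0.015). Troponin I and T genes are arranged in pairs along the chromosomes. In the GRCr8 annotation Tnni3 and Tnnt1 had 0 protein-coding genes between them on chromosome 1, Tnni1 and Tnnt2 had 1 on chromosome 13, and Tnni2 and Tnnt3 had 5 on chromosome 1. Tnni1 was higher and Tnnt2 lower in the atria, so this pair went in opposite directions.

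Tropomyosins lie along actin and block or free the myosin sites. Tpm1, the main tropomyosin of the heart, read 12.73, 12.75, 12.74 and 12.75 in the atria and 12.94, 12.91, 12.94 and 12.92 in the ventricles. Its tissues did not overlap at the brightest probe set (difference -0.18, limma adjusted p = 0.019, and 0.058 without atrial pools 1 and 4), but its 7 probe sets did not go one way. A probe set reading 8.58, 8.51, 8.41 and 8.47 in the atria and 8.30, 8.19, 8.39 and 8.24 in the ventricles was higher in the atria by 0.21 (adjusted p = 0.028), and the other 5 did not pass. Tpm2, the beta form, read 8.75, 8.67, 8.76 and 9.03 in the atria and 8.27, 8.28, 8.35 and 8.16 in the ventricles. Every atrial array was above every ventricular one, with a difference of 0.54 ± 0.08 (SE, limma adjusted p = 0.0005). The dimmer probe set of Tpm2 read 6.54, 6.39, 6.65 and 6.69 against 4.34, 4.26, 4.59 and 4.62, a difference of 2.11 and a fold of 4.33 (adjusted p = 9.2e-08). The size of the Tpm2 difference thus depended on the probe set, while its direction did not. Tpm3 read 8.42, 8.24, 8.29 and 8.53 in the atria and 8.59, 8.57, 8.73 and 8.63 in the ventricles. It was lower in the atria by 0.26 (limma adjusted p = 0.021), and without atrial pool 2, atrial pool 3 or ventricular pool 3 the adjusted p was 0.06, 0.06 and 0.061. Of its 12 probe sets, 2 were lower in the atria and 10 did not pass. Tropomyosin genes make several transcripts by splicing, and which of them each probe set reads was not analysed here.

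Of the genes for actin and for thin filament length, Acta1 stood out. Acta1, the skeletal alpha-actin that the heart also makes, read 10.62, 10.48, 10.19 and 11.37 in the atria and 12.32, 12.29, 12.23 and 12.30 in the ventricles. The ventricular arrays were nearly alike, and the atrial arrays were spread below them with pool 4 highest. The difference was -1.62 ± 0.20 (SE), 3.07 fold more in the ventricles (limma adjusted p = 8.5e-05). Without atrial pools 1 and 4 it was -1.95. Its limma adjusted p lay close to the threshold of 0.0001 and was 0.00022 to 0.00049 when any pool but atrial pool 4 was left out. With SAM, the study's own test, Acta1 passed on all arrays. Of the 9 skeletal muscle markers measured, 6 had a mean under 4. Myh1 was bright and lower in the atria at its brightest probe set (10.35 against 11.04), and Neb was higher (7.08 against 3.46). The other Myh1 probe sets differed by -0.91, -0.87, -0.09 and 0.36, of which the last 2 did not pass (limma adjusted p = 0.67 and 0.079). Only these last 2 have names that do not mark them as matching several transcripts. The other Neb probe sets differed by 1.21 and by 0.10, and the latter did not pass (limma adjusted p = 0.328). The part of these markers in the Acta1 difference was not tested.

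Actc1 could not be separated from Acta2. On the 4 bright probe sets that match both genes, differences were -0.01, -0.02, -0.03 and 0.28. The last of these, at 12.33 in the atria and 12.05 in the ventricles, passed (limma adjusted p = 0.0038). A dim shared probe set, with means of 2.88 and 3.15, was lower in the atria by 0.27 (adjusted p = 0.013). Acta2, the smooth muscle actin, was lower in the atria by 0.75 on a probe set of its own.

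Tmod1 caps the pointed end of the thin filament and Lmod2, a related protein, is known to lengthen it. Tmod1 read 10.27, 10.36, 10.32 and 10.22 in the atria and 10.07, 10.01, 10.14 and 10.07 in the ventricles. Lmod2 read 9.79, 10.06, 9.82 and 9.37 in the atria and 10.18, 10.21, 10.21 and 10.21 in the ventricles. They went opposite ways without overlap, Tmod1 by 0.22 (limma adjusted p = 0.014, and 0.37 on its other probe set) and Lmod2 by -0.44 (adjusted p = 0.014). Lmod2 was lowest in atrial pool 4, and without atrial pools 1 and 4 its difference was -0.26.

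Among the proteins of the thick filament, titin and the M-band, Mybphl separated the chambers most. Mybphl encodes a small relative of cardiac myosin-binding protein C. It read 10.51, 10.71, 10.67 and 10.42 in the atria and 3.80, 3.73, 3.61 and 3.89 in the ventricles. The ventricular arrays sat at the low end of the scale and the atrial arrays were bright, with a difference of 6.82 ± 0.09 (SE, limma adjusted p = 1.5e-11). The fold of 113 is a lower bound, because the ventricular mean was under 4. Mybpc3, the myosin-binding protein C of heart muscle, read 11.05, 11.30, 11.25 and 11.08 in the atria and 11.41, 11.46, 11.47 and 11.45 in the ventricles. It was lower in the atria by 0.28 (limma adjusted p = 0.0096) with no overlap, and without atrial pools 1 and 4 the adjusted p was 0.069.

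Ttn, the giant spring of the sarcomere, differed by -0.11 (95% interval -0.25 to 0.03, limma adjusted p = 0.19). The myomesins, which tie thick filaments together at the M-band, did not pass either. Myom1 read 10.33, 10.40, 10.31 and 10.00 in the atria and 10.46, 10.36, 10.38 and 10.47 in the ventricles. Myom2 read 11.50, 11.68, 11.74 and 11.45 against 11.49, 11.45, 11.50 and 11.62. The tissues overlapped in both, with differences of -0.16 (-0.35 to 0.03) and 0.08 (-0.10 to 0.25) and their 95% intervals.

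Of the 10 genes of the Z-disc core, 4 were higher in the atria (40%), 3 lower (30%) and 3 did not pass, where 22.5% of all genes were called each way. Csrp3, the muscle LIM protein, had the largest difference, 0.55 ± 0.06 (SE), with atrial arrays from 12.27 to 12.44 and ventricular arrays from 11.75 to 11.90 (limma adjusted p = 7e-05). Tcap, the cap of titin at the Z-disc, read 11.09, 11.42, 11.43 and 10.74 in the atria and 10.68, 10.58, 10.70 and 10.71 in the ventricles. Its atrial pool 4 lay just above the ventricular arrays, and the difference of 0.50 (limma adjusted p = 0.013) was 0.76 without atrial pools 1 and 4. Mypn, the actinin-binding myopalladin, was higher by 0.41 (adjusted p = 0.0034).

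Ldb3, which encodes the PDZ-LIM protein cypher that binds alpha-actinin, had 6 probe sets. The brightest read 11.37, 11.60, 11.58 and 11.41 in the atria and 11.17, 11.23, 11.21 and 11.22 in the ventricles, and differed by 0.28 (limma adjusted p = 0.0081). Another read 10.48, 10.63, 10.56 and 10.38 in the atria and 10.81, 10.75, 10.82 and 10.77 in the ventricles, and differed by -0.27 (adjusted p = 0.009). These probe sets went opposite ways and neither had overlapping tissues. A further 2 were higher in the atria by 0.26 and 0.27, and the 2 dimmest did not pass.

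Synpo2l, an actinin-binding protein of the Z-disc, and Des, the intermediate filament that links Z-discs to each other, were lower in the atria. Their differences were -0.43 (limma adjusted p = 0.0022) and -0.34 (adjusted p = 0.0028), with no overlap. Des is also made by smooth muscle, whose markers were lower in the atria. Myot, encoding myotilin, was lower by 0.45 (adjusted p = 0.015) with both means under 4 and overlapping tissues, and without atrial pools 1 and 4 the adjusted p was 0.092. Actn2, the alpha-actinin that cross-links actin at the Z-disc, differed by 0.07 (95% interval -0.09 to 0.22) and Myoz2, which binds calcineurin there, by -0.07 (-0.24 to 0.10). Flnc, the muscle filamin, differed by -0.08 (-0.25 to 0.09), but its dimmer probe set was higher in the atria by 0.31 (adjusted p = 0.037).

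The PDZ-LIM and LIM-only genes included large differences in both directions. Of the 6, 2 were higher and 2 lower (33.3% each way, against 22.5% of all genes) and 2 did not pass. Fhl2, a LIM-only scaffold that binds titin, read 9.12, 8.71, 8.75 and 9.27 in the atria and 12.09, 12.07, 12.03 and 12.08 in the ventricles. The ventricular arrays were all but identical and far above the atria, of which pools 1 and 4 were highest. The fold was 8.62 (difference -3.11 ± 0.12, SE, limma adjusted p = 2e-08). Another Fhl2 probe set gave -2.64, and without atrial pools 1 and 4 the brightest gave -3.34. Fhl1, its relative, read 11.18, 11.32, 11.35 and 11.42 in the atria and 10.91, 10.79, 10.85 and 10.83 in the ventricles. Fhl1 was higher in the atria by 0.47 (limma adjusted p = 0.00024), by 1.09 on a dimmer probe set (adjusted p = 2.9e-05), and did not pass on a probe set with a mean under 4.

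Pdlim3, the actinin-associated LIM protein, read 10.45, 10.63, 10.42 and 10.35 in the atria and 8.79, 8.72, 8.71 and 8.68 in the ventricles. Within each tissue the pools were close, and the atria were higher by 3.33 fold (difference 1.74 ± 0.07, SE, limma adjusted p = 3.5e-08). Pdlim5, which anchors signaling kinases at the Z-disc, read 10.46, 10.56, 10.42 and 10.50 in the atria and 10.90, 10.96, 10.92 and 11.02 in the ventricles. It was lower in the atria by 0.46 at this probe set (adjusted p = 0.00014). A dimmer Pdlim5 probe set read 6.51, 6.57, 6.52 and 6.49 in the atria and 5.46, 5.63, 5.35 and 5.75 in the ventricles. There the atria were higher by 0.98 (limma adjusted p = 8.2e-06), so the direction for Pdlim5 rested on the probe set. Of its remaining 2 probe sets, with means under 4, one was lower in the atria by 0.27 and the other did not pass.

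Pdlim7, known as enigma, read 8.64, 8.36, 8.46 and 8.34 in the atria and 8.32, 8.32, 7.99 and 8.19 in the ventricles. Its arrays did not overlap, yet its difference of 0.25 (95% interval 0.04 to 0.46) had an adjusted p of 0.059 from limma, and 0.038 without atrial pool 4. Pdlim1 read 8.86, 9.26, 9.08 and 9.09 in the atria and 8.89, 9.30, 9.07 and 9.13 in the ventricles. The tissues of Pdlim1 overlapped fully, with a difference of -0.02 (-0.25 to 0.20).

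The genes of stretch sensing, Xin proteins and costameres, the junctions between sarcomere and membrane, had 3 of 5 measured members higher in the atria, 1 lower by more than any of these (Ankrd23) and 1 that did not pass, where 22.5% of all genes were called each way. Ankrd1 and Ankrd23 encode ankyrin repeat proteins that bind titin, of which Ankrd1 is known to be induced by load. Ankrd1 read 12.65, 12.69, 12.67 and 12.71 in the atria and 12.15, 12.18, 12.08 and 12.16 in the ventricles. Ankrd23 read 3.68, 3.85, 3.21 and 3.47 in the atria and 6.19, 5.66, 5.40 and 6.40 in the ventricles. The relatives went opposite ways, Ankrd1 by 0.53 (limma adjusted p = 2.7e-05) and Ankrd23 by -2.36 (adjusted p = 9.1e-06). Atrial Ankrd23 lay at the low end of the scale, so its fold of 5.13 is a lower bound. Without atrial pools 1 and 4 its adjusted p was 0.00019, outside the study's threshold.

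Smpx, a small protein of costameres, was higher in the atria by 0.76 ± 0.06 (SE, limma adjusted p = 3.7e-06), with atrial arrays from 12.26 to 12.38 and ventricular arrays from 11.51 to 11.64. At 1.69 fold it lay just below the study's fold of 1.8. Cmya5, which encodes myospryn, was higher by 0.39 (adjusted p = 0.0052). Xirp1, the Xin protein of the intercalated disc, differed by -0.11 (95% interval -0.38 to 0.17) with overlapping tissues.

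Over all 74 probe sets, 23 were higher in the atria (31.1%), 17 lower (23%) and 34 did not pass. Of all genes, each read by its brightest probe set, 22.5% were called each way, so the lower share was close to that of all genes. The share over every probe set of the array is not given here. Of the 14 genes with several probe sets, Tpm1, Ldb3 and Pdlim5 had probe sets that passed in opposite directions. For Tpm2, Fhl1 and Tnni1 the dimmer probe set gave the larger difference, while for Fhl2 and Ankrd1 it gave the smaller.

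**Figure D3:**
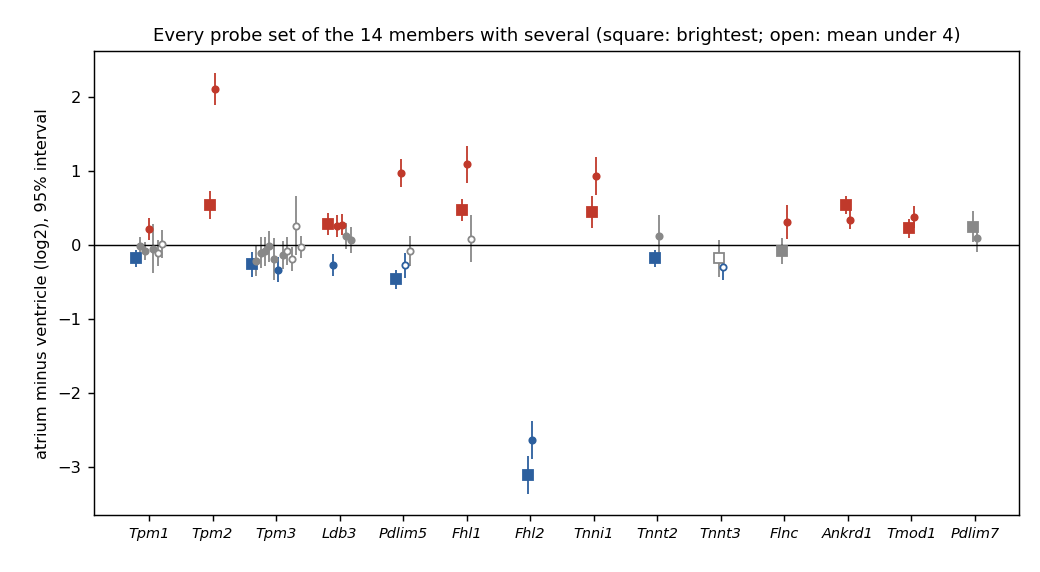
Difference between atrium and ventricle (log2 signal intensity, y axis) with its 95% interval for every probe set of the 14 genes that have several. Squares are the brightest probe sets, open symbols have a mean under 4, and red (higher in the atria) and blue (lower) mark an adjusted p under 0.05. Tpm1, Ldb3 and Pdlim5 have red and blue symbols, and the dimmer Tpm2 probe set reaches 2.11.

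Related genes of a family were then compared on the same array, as the log2 ratio of one to the other, which asks whether the balance within a family differed between the chambers. Of 15 pairs listed, 13 could be computed, and p-values from an exact two-sided permutation test of 4 against 4 arrays were adjusted over these 13. In 11 pairs the tissues did not overlap, and each of these had the smallest p that 4 against 4 arrays can give (0.0286, adjusted 0.0338, exact). This outcome was fixed in advance where both genes of a pair had separated the tissues in opposite directions. Those pairs were Mybphl to Mybpc3, Fhl1 to Fhl2, Pdlim3 and Pdlim7 to Pdlim5, Ankrd23 to Ankrd1, Tmod1 to Lmod2 and Tpm2 to Tpm1. The outcome was also fixed for Tnni1 to Tnni3, because Tnni3 varied over all arrays by less than the gap between the tissues in Tnni1. For all of these pairs the ratio gives the size of a shift and no further test. Pairs that share Pdlim5 are not independent of each other. The log2 ratio of Mybphl to Mybpc3 was 7.10 higher in the atria, that of Fhl1 to Fhl2 3.58 and that of Pdlim3 to Pdlim5 2.20. The balance of Ankrd23 to Ankrd1 was 2.89 lower in the atria (difference -2.89). Ventricular Mybphl and atrial Ankrd23 lay at the low end of the scale, so the sizes of these shifts, 7.10 and -2.89, are bounds set by the background and not measured ratios. Levels are not comparable between probe sets, so only the shift of each ratio is given.

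Smaller shifts toward the first-named gene in the atria were seen for Tpm2 to Tpm1 (0.72), Pdlim7 to Pdlim5 (0.71), Tmod1 to Lmod2 (0.66), Tnni1 to Tnni3 (0.45), Pdlim1 to Pdlim5 (0.44) and Tnnt1 to Tnnt2 (0.30). Tnnt1 and Tnnt3 lay at the low end of the scale in both tissues, so their ratios follow Tnnt2 and the background. Myom1 to Myom2 shifted by -0.23, although neither myomesin passed alone. The ratios of Tpm3 to Tpm1 (-0.08, exact permutation p = 0.343) and Tnnt3 to Tnnt2 (0.00, p = 0.971) overlapped between the tissues. With the mean of all probe sets of each gene, 8 pairs passed in place of 11. Pdlim1 to Pdlim5 then shifted by -0.06, Pdlim7 to Pdlim5 by 0.13 and Tnnt1 to Tnnt2 by 0.15, and none of these passed.

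**Figure D4:**
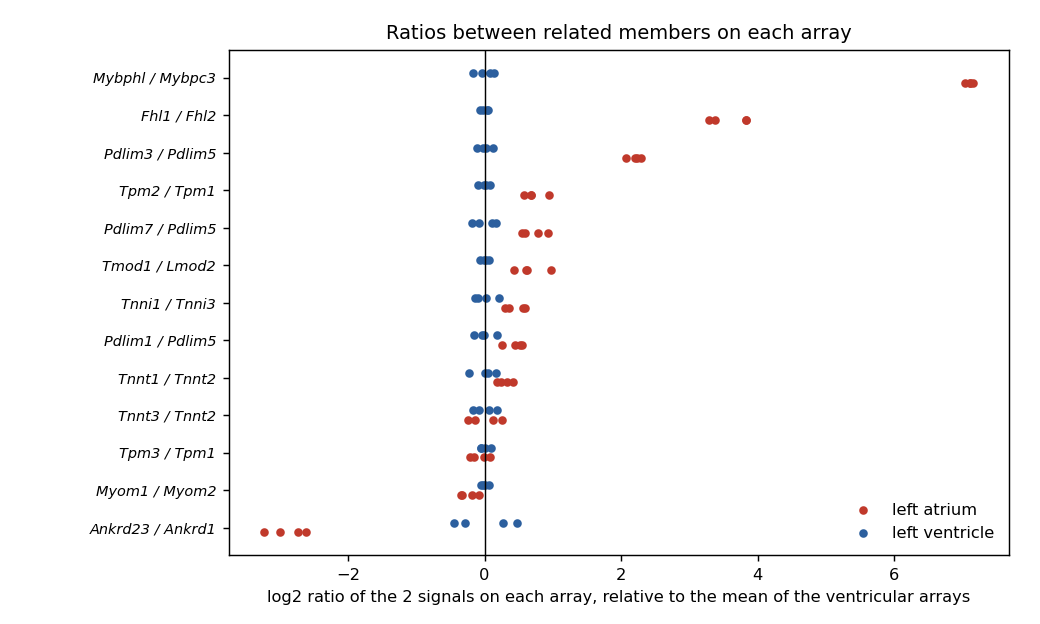
Log2 ratio of related genes on each array (x axis), centred on the ventricular mean, red for the 4 atrial and blue for the 4 ventricular pools. Tissues are apart in 11 of 13 pairs and overlap for Tnnt3 to Tnnt2 and Tpm3 to Tpm1.

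The atrial pools were less alike than the ventricular pools. Atrial pool 4 was the lowest atrial array for 22 of 38 genes (57.9%, against 34% of all genes), and atrial pool 2 the highest for 16. Atrial pools 1 and 4, in which Myl2 was high, lay nearer to the ventricles than pools 2 and 3 for 7 of the 13 genes higher in the atria (53.8%, against 26.8% of all such genes). Those were Tmod1, Mybphl, Tcap, Csrp3, Ldb3, Mypn and Cmya5. The same held for 3 of the 12 lower genes (25%, against 19.3%), namely Tpm3, Acta1 and Fhl2. The reverse, with pools 1 and 4 farther from the ventricles than pools 2 and 3, held for 2 lower genes, Lmod2 and Mybpc3, and for 0 higher genes. Over all genes the reverse held for 467 of 3198 lower and 303 of 3193 higher genes. Atrial pool 4 also had the highest mean of the fat markers. What part ventricular muscle or fat in these pools had in the spread was not tested.

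**Figure D5:**
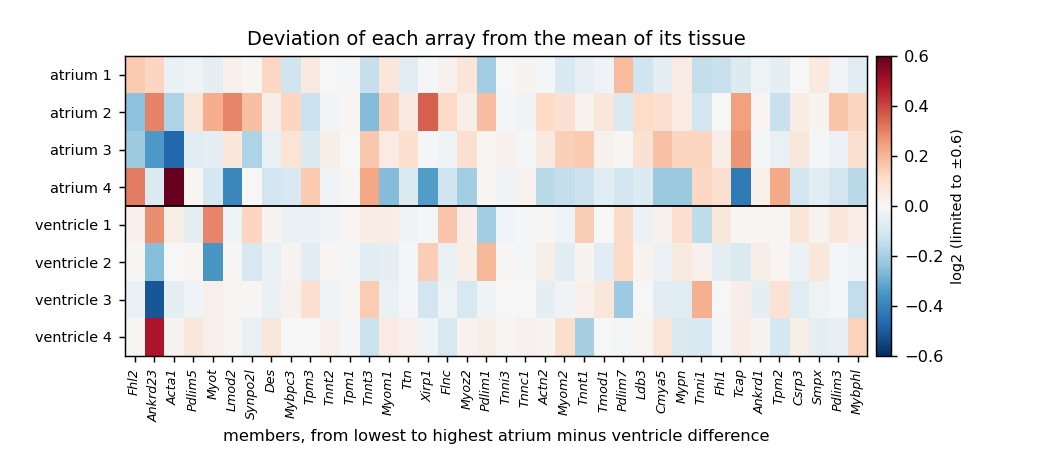
Deviation of each array (rows) from the mean of its tissue (log2, colour, limited to ±0.6) for the 38 genes ordered by their difference. Atrial pool 4 is mostly blue apart from Acta1, Fhl2, Tpm2 and a few others, and the strongest colours of the ventricular rows are in Ankrd23 and Myot.

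Other sarcomere genes were examined from a list of 52, of which 47 had a probe set of their own. In the atria 9 were higher (19.1%) and 15 lower (31.9%), against 22.5% each way of all genes, and 23 did not pass, with a median difference of -0.08. With the study's thresholds 5 were higher and 4 lower, together 19.1% of the list against 5.89% of all genes. The largest excess in the atria was in Neb, the ruler protein of skeletal thin filaments, at 3.62, with its ventricular mean of 3.46 at the low end of the scale. Mybpc1, the slow skeletal myosin-binding protein C, followed at 1.39 and Klhl41, a kelch protein of the sarcomere, at 1.26. The largest deficits were in Lmod3, a leiomodin of skeletal muscle, at -2.18, in the LIM-only gene Fhl3 at -0.97 and in Fhod3, a formin of the cardiac thin filament, at -0.94. Thus Lmod3 and Lmod2 were both lower in the atria, as were Fhl3 and Fhl2, each by limma at an adjusted p under 0.05.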

How the data were processed

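RNA of 4 left atrial and 4 left ventricular pools was measured on 8 arrays. The authors computed the deposited values, log2 signal intensities, by RMA, which corrects background, equalizes the distributions of the arrays and summarizes each probe set. Its version is not given in the sources used here. Detection calls were not analysed here. The members, gene lists and tests were chosen with earlier results of these data known.

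Gene names came from the platform annotation (20826 of 31042 probe sets with 1 gene, of which 20758 were updated by gene ID). The 8 arrays were compared with limma 3.58.1 in R 4.3.3 without covariates, with Benjamini-Hochberg adjustment over 31042 probe sets and calls at an adjusted p under 0.05. The study's thresholds are an FDR of 0.01%, set there by SAM, and a fold of 1.8. Here the FDR threshold was applied to limma adjusted p-values, with SAM as an alternative. Ratios of related genes were tested by exact permutation over arrays. Every gene of the list was named. Values of all arrays are given for genes past the study's thresholds, genes in ratios and genes whose probe sets passed in opposite directions. The number of arrays limits the precision, and over all probe sets the SD of 4 pools had a median of 0.117 (atria) and 0.099 (ventricles).

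Alternatives were SAM (70 relabellings), trended and robust variances, a replicate block, median centring, cyclic loess, quantile normalization, the dimmest 40% of probe sets left out, a fold of 1.5, other choices of probe set, each array left out, and atrial pools 1 and 4 left out together. The fit was tested on simulated data. Plots used Python 3.11.15 and matplotlib 3.10.9.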

Additional observations from a re-analysis of the deposited data

Results flagged for a closer look

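Of 76 groups of 4 arrays (38 genes in each tissue), 4 held an array far from the others by Dixon's criterion at 95%, where chance gives about 1 in 20. For Tnni3, ventricular pool 1 read 12.77 and the others 12.79 to 12.80. For Lmod2, ventricular pool 1 read 10.18 and the others 10.21. For Myoz2, ventricular pool 3 read 11.84 and the others 11.96 to 11.98. For Myot, which lay at the low end of the scale, atrial pool 2 read 3.67 and the others 3.34 to 3.39. The gaps for Tnni3 and Lmod2 were under the median SD between ventricular pools over all probe sets, 0.099. None of the 4 was an atrial pool 1 or 4.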

How the results depend on the processing

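The counts of sarcomere genes higher and lower in the atria (13 and 12) kept within 1.5 times in the alternatives run, except that with every probe set counted 23 of 74 were higher, and 5 in place of 2 passed the study's thresholds in that direction. Leaving out each array in turn gave 13 to 14 higher and 11 to 12 lower, 2 higher and 2 to 3 lower past the study's thresholds, 7 to 11 and 13 to 16 of the other sarcomere genes, and a median difference of -0.04 to 0. With the mean of all probe sets of each gene, Pdlim5 turned to 0.04 (limma adjusted p = 0.59), the ratio of Pdlim1 to Pdlim5 to -0.06 (exact permutation adjusted p = 0.571), Tpm1, Tpm3, Tnnt2 and Ldb3 lost their calls and Tnnt3 gained one. Whether atrial and ventricular pools with the same replicate number share animals is not stated. Residuals of pools with the same number correlated from -0.188 to 0.155, and 2 of 4 were over 0.1. For pools with other numbers the range was -0.132 to 0.278. Of the 4 atrial pools, 2 correlated best with the ventricular pool of their own number. So few correlations, taken over all probe sets, can neither show nor exclude a pairing. With the replicate block 23 of the 25 calls remained, and Tnnt2 (adjusted p = 0.063) and Tpm1 (0.059) lost theirs. Without atrial pools 1 and 4, 21 remained, and Tnnt2 (0.07), Tpm1 (0.058), Mybpc3 (0.069) and Myot (0.092) lost theirs. Trended and robust variances and SAM added Ttn and Pdlim7, and with the former Acta1 was outside the study's thresholds (0.0026). The call of Tpm1 was also lost without probe sets whose names mark them as matching several transcripts (0.81). Ratios had no test with an array left out, since 3 against 4 arrays cannot go below 0.0571 in an exact test, nor with the replicate block (0.125). The cause of these changes was not tested.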
